A study of Mus musculus with 13 samples.

Results

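The lamins and high mobility group (HMG) chromatin proteins were followed as 9 genes chosen by symbol: the lamin genes Lmna, Lmnb1 and Lmnb2, the lamin B receptor gene Lbr, and the HMG genes Hmgb1, Hmgb2, Hmgb3, Hmga1 and Hmga2. They are 9 of the 57010 genes listed and, since all 9 had enough reads, 9 of the 15034 genes tested. RNA came from mouse embryonic fibroblasts (MEFs), which are fibroblasts grown from mouse embryos, of wild-type (WT) genotype in every group. Control MEFs were untreated, and senescent MEFs had received etoposide, a topoisomerase inhibitor that breaks DNA, at 2 μM for 24 h and were then kept for 5 days. The sample titles abbreviate the agent as Eo in untreated and Eto in treated senescent samples, and both were read as etoposide after the study's methods. Senescent MEFs were left untreated or were given Fucoidan-FV, the fucose-rich sulfated sugar polymer of Fucus vesiculosus, a brown seaweed, at 100 or 300 μg/mL for 12 h (FV100 and FV300). Each of the 4 groups held mice 4, 5 and 6, and control mouse 5 had libraries 5(1) and 5(2), which were summed, so 13 libraries gave 12 samples. Per the study's methods the MEFs came from mid-gestation embryos with viscera, lung and heart removed. No group of control MEFs with Fucoidan-FV is among the samples analysed here.

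Lamins form the meshwork under the inner nuclear membrane. A-type lamins come from Lmna and B-type lamins from Lmnb1 and Lmnb2, and Lbr encodes an inner membrane protein that binds B-type lamins and holds heterochromatin at the nuclear edge. HMGB proteins bend DNA through their HMG boxes, while HMGA proteins bind AT-rich DNA through AT-hooks and are high in embryonic and proliferating cells. Loss of lamin B1 and HMGB2 and the release of HMGB1 from the nucleus are widely used marks of senescence, and HMGA proteins have been placed in senescence-associated heterochromatin foci.

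Promoter sequences are shown for members whose levels moved together or stood apart: Hmgb2 and Hmgb3, which were lower in senescent MEFs, Hmga1 and Hmga2, which were lower still with Fucoidan-FV, and Lmna, which was not lower in senescent MEFs. Each is the stretch of 250 bases before the start of the Ensembl canonical transcript in GRCm39, written 5′ to 3′ on the strand of the gene, and capitals mark a match to any of 6 motifs on either strand. Annotated exons, on either strand, cover all 250 bases of the Hmgb2, Hmgb3 and Hmga1 windows. They cover 0 bases of the Hmga2 and Lmna windows. Of the windows not shown, they cover 250 bases for Lmnb1, 200 for Lbr, 61 for Hmgb1 and 1 for Lmnb2. The Hmgb3, Lmna, Lbr and Hmgb1 windows lie inside the annotated span of their own gene, and those of Hmga1 and Lmnb2 overlap it in part. The windows are chr8:57964437-57964686 on the plus strand for Hmgb2, chrX:70599274-70599523 on the plus strand for Hmgb3, chr17:27775221-27775470 on the plus strand for Hmga1, chr10:120313096-120313345 on the minus strand for Hmga2 and chr3:88410922-88411171 on the minus strand for Lmna.
Hmgb2: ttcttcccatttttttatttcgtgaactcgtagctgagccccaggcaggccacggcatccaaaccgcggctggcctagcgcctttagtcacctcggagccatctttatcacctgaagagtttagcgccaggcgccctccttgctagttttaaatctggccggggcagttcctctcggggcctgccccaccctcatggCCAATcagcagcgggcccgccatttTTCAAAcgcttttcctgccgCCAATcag
Hmgb3: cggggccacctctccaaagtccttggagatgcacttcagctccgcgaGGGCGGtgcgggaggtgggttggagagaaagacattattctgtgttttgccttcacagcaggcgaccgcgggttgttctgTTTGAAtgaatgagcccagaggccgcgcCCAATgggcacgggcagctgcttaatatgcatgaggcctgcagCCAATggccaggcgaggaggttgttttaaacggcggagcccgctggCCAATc
Hmga1: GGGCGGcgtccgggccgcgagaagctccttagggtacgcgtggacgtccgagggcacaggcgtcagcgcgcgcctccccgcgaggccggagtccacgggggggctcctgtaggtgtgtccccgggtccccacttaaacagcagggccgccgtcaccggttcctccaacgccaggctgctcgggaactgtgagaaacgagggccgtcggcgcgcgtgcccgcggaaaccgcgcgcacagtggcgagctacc
Hmga2: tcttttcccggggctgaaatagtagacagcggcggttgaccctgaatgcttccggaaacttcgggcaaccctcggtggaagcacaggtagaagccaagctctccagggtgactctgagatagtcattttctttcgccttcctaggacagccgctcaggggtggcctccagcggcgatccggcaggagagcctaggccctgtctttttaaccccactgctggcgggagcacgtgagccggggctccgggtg
Lmna: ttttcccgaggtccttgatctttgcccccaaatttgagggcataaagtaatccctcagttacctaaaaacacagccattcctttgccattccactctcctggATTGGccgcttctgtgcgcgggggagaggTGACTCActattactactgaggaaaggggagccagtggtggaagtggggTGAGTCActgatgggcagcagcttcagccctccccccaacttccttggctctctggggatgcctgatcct

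The motifs were the CCAAT box (CCAAT), the CHR element known from late cell cycle genes (TTTGAA), the E2F site (TTTCCCGC, TTTGGCGC, TTTCGCGC or TTTGCCGC), the AP-1 site (TGANTCA), the GC box (GGGCGG) and the TATA box (TATAAA). The Hmgb2 window held a CHR element 28 to 23 bases before the start and a CCAAT box on each side of it, and the Hmgb3 window held a CHR element and 3 CCAAT boxes. The CHR element occurred in 4 of the 9 members (Lmnb1, Lbr, Hmgb2 and Hmgb3) and in 15.6% of 21770 promoters of protein-coding genes, and the CCAAT box occurred in 4 of 9 (Lmna, Hmgb1, Hmgb2 and Hmgb3) and in 36.5%. The E2F site was matched in Lmnb1 alone of the members (2.28% of promoters), and the AP-1 site in Lmna alone, with 2 matches (6.17%). A GC box was present in 3 members (Lmnb1, Hmgb3 and Hmga1, and 36.3% of promoters), and the TATA box in none of them (11.9%). Over the 13447 promoters of tested genes alone, the shares were 36.1% for the CCAAT box, 12.2% for the CHR element and 3.01% for the E2F site. There they were 4.7% for the AP-1 site, 49.0% for the GC box and 7.47% for the TATA box. Hmga1 had only a GC box at the far end of its window, and Hmga2 had none of the 6 motifs. A match is a description of letters in the window and was not tied to any measurement here.

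Counts were expected counts per gene, scaled to CPM (counts relative to library size) with TMM factors, and each library held 22782536 to 31278750 counts. The fibroblast list was high in all groups, with 7 or 8 of 8 markers at 1 CPM or more on the mean and a summed level of 9488 to 15856 CPM. Summed macrophage (6 markers), endothelial (5) and epithelial (5) lists reached at most 14.4, 11.2 and 1.95 CPM. The endothelial list summed to 1.33 to 2.27 CPM in senescent MEFs and to 7.07 to 11.2 and 3.99 to 9.07 CPM in FV100 and FV300 MEFs. The skeletal muscle list of 6 genes, 2 of them at 1 CPM or more, summed to 92.8 to 181 CPM in control, 135 to 343 CPM in senescent, 91.1 to 172 CPM in FV100 and 65.1 to 130 CPM in FV300 MEFs, and the adipocyte list of 4 to at most 16.3 CPM. The neural list of 5 genes, 3 of them at 1 CPM or more, summed to 642 to 1031 CPM in senescent MEFs and to 192 to 248 CPM with Fucoidan-FV, and the part of these lists in the results below was not tested. Libraries also differed in their counts on single-transcript genes, meaning here the 493 genes that share less than 5% of their sequence with any other transcript. The median log2 deviation of these genes from the mean of all libraries was lowest in control mouse 6 (−1.49) and highest in FV100 mouse 5 (1.10). In bulk RNA, fewer cells of a kind and less RNA per cell cannot be told apart.

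The first comparison asked how senescent MEFs differed from control MEFs. Of the 9 members, 8 passed the test (adjusted p under 0.05 in edgeR's quasi-likelihood test), all of them lower in senescent MEFs, beside 11.7% of all genes tested, and 5.63% in that direction. B-type lamins, Lbr, all 3 HMGB genes, Hmga1 and Hmga2 fell, Lmnb1 the most, and Lmna did not pass. The median log2 fold change was −1.30 over the members and 0.07 over all genes. As differentially expressed genes (DEGs), which also need an absolute log2 fold change over 1, 7 members counted, beside 8.42% of all genes. The samples of 8 members lay lower in senescent than in control MEFs without overlap, beside 12.9% of all genes.

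Lmna, the gene of lamins A and C, stood at 1195, 1099 and 1017 CPM in control mice 4, 5 and 6 and at 1155, 1064 and 1656 CPM in the senescent samples of the same mice. The groups overlapped, and mouse 6 alone was clearly higher after etoposide. The log2 fold change was 0.23 (SE 0.20, adjusted p = 0.534), with a 95% interval of −0.19 to 0.65.

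Lmnb1, the gene of lamin B1, stood at 46.1, 28.3 and 13.0 CPM in control mice 4, 5 and 6 and at 1.69, 1.29 and 2.45 CPM in senescent mice 4, 5 and 6. The lowest control was still over the highest senescent sample, and the fall was 16.0-fold (log2 fold change −4.00, SE 0.53, adjusted p = 0.000407), the lowest log2 fold change among the members. Lmnb2, the gene of lamin B2, fell from 55.8, 55.0 and 44.9 CPM to 19.7, 18.3 and 25.3 CPM in the same order of mice, a 2.46-fold difference (log2 fold change −1.30, SE 0.26, adjusted p = 0.00546). Lmnb2 had no overlap between the groups and less spread than Lmnb1.

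Lbr, whose product also has sterol reductase activity, stood at 59.5, 48.2 and 35.3 CPM in control mice 4, 5 and 6 and at 10.1, 5.39 and 12.9 CPM in senescent mice. Every mouse fell, by 5.03-fold on the fitted scale (log2 fold change −2.33, SE 0.34, adjusted p = 0.000686). Per length, Lmna made up 93.9% ± 1.35 (SD, n = 3) of the summed lamin TPM in control MEFs and 98.9% ± 0.0783 in senescent MEFs. The ranges of that share did not overlap (92.5 to 95.2% against 98.8 to 99.0%).

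Hmgb1, which encodes the most abundant HMGB protein and an extracellular alarm signal when released, stood at 339, 328 and 405 CPM in control mice 4, 5 and 6 and at 158, 178 and 182 CPM in senescent mice. The groups did not overlap, and the fall was 2.07-fold (log2 fold change −1.05, SE 0.22, adjusted p = 0.00673). Hmgb2, typical of dividing cells, went from 35.1, 19.5 and 10.8 CPM to 1.66, 1.34 and 3.33 CPM, a 10.3-fold fall (log2 fold change −3.36, SE 0.68, adjusted p = 0.00581). Its samples varied more within a group than those of Hmgb1.

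Hmgb3, an X-linked HMGB gene known from early blood progenitors, stood at 53.6, 50.4 and 60.9 CPM in control mice 4, 5 and 6 and at 6.97, 6.42 and 7.88 CPM in senescent mice. It was the most even of the falling members, with log2 differences of −2.94, −2.97 and −2.95 in mice 4, 5 and 6, and fell 7.75-fold (log2 fold change −2.95, SE 0.39, adjusted p = 0.000375). Hmgb1 thereby took a larger share of the summed HMGB TPM, 95.8% ± 0.834 (SD, n = 3) in senescent against 84.6% ± 1.65 in control MEFs, while the sum itself went from 559 to 694 TPM in control MEFs to 242 to 302 TPM in senescent MEFs.

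Hmga1 stood at 774, 714 and 441 CPM in control mice 4, 5 and 6 and at 288, 332 and 344 CPM in senescent mice. The groups did not overlap, but mouse 6 fell least, by 0.36 on the log2 scale. The fitted log2 fold change was −0.999 (SE 0.21, adjusted p = 0.00819), just short of the DEG threshold. Hmga2, the other AT-hook gene, fell from 559, 405 and 369 CPM to 223, 179 and 178 CPM (log2 fold change −1.20, SE 0.30, adjusted p = 0.0182). With control mouse 4 left out, Hmga1 and Hmga2 no longer passed (adjusted p = 0.0525 and 0.0827), nor did Hmga2 without senescent mouse 5 (0.0652). Libraries 5(1) and 5(2) of control mouse 5 held 994 and 341 CPM of Hmga1 and 585 and 168 CPM of Hmga2, and with 5(2) alone neither gene passed (adjusted p = 0.119 and 0.170). With both libraries as separate samples, Hmga2 did not pass (adjusted p = 0.0678).

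**Figure D1:**
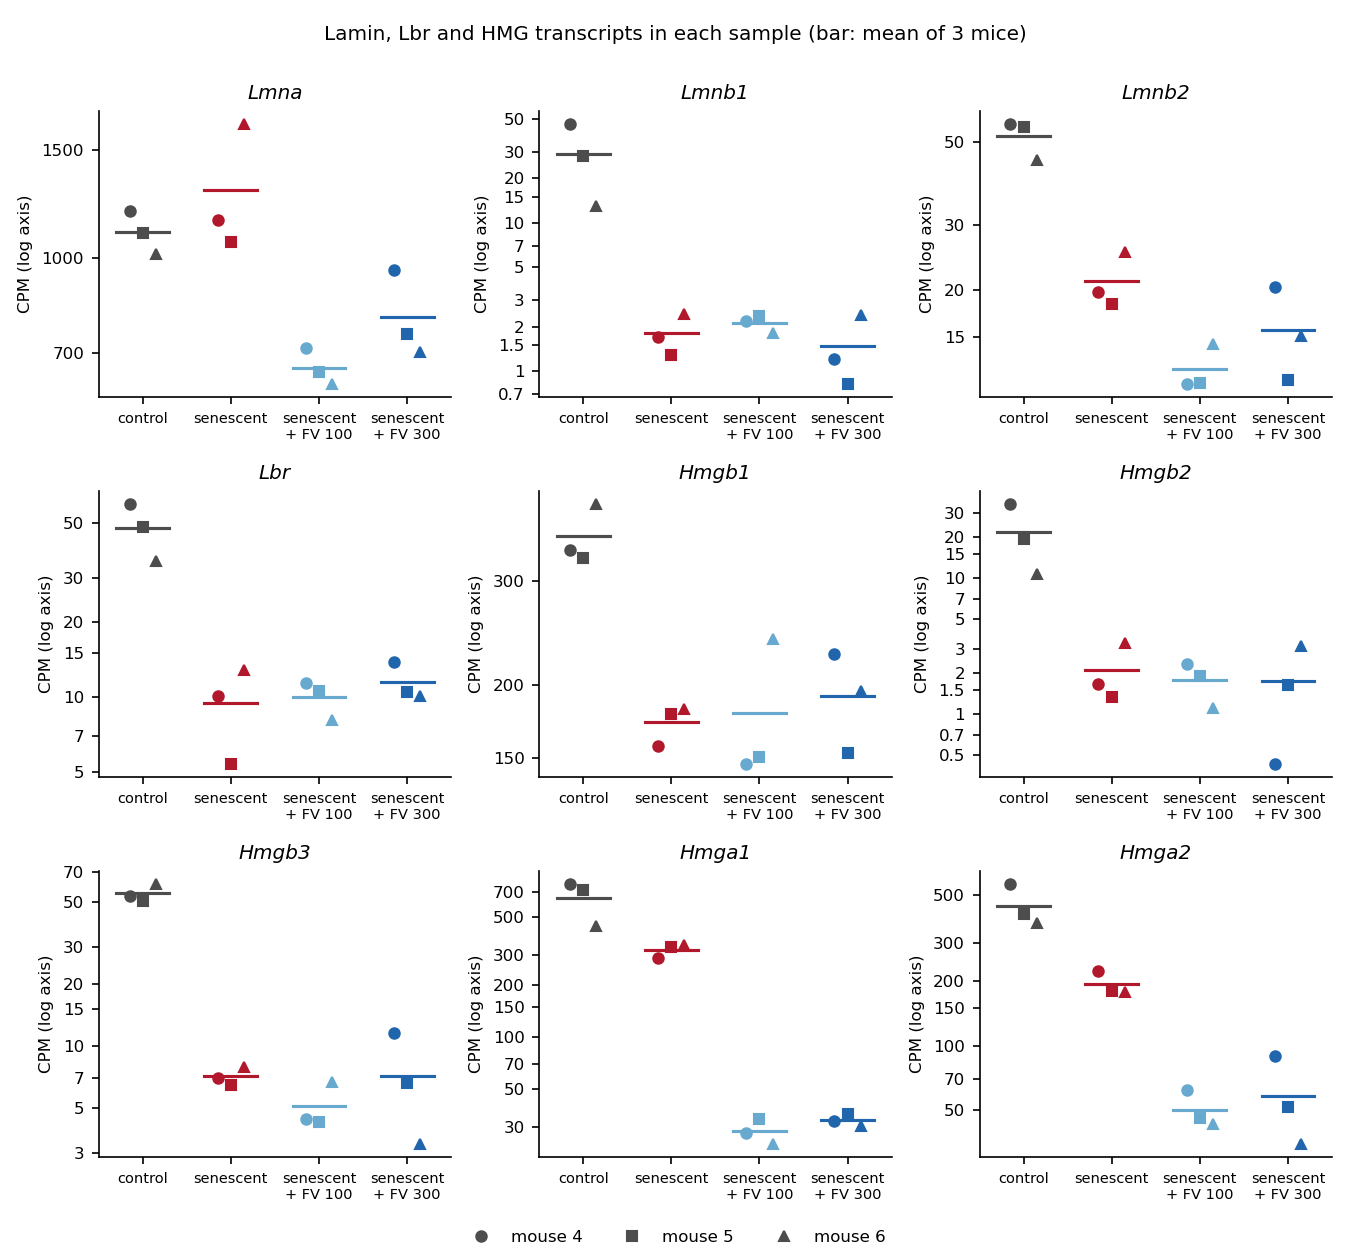
Level of each member in every sample, in CPM on a log axis, for control, senescent, FV100 and FV300 MEFs. Symbols mark mice 4, 5 and 6 and bars the mean of 3 mice. In 8 panels all control samples lie over all senescent samples, Lmna being the exception, and Hmga1 and Hmga2 step down again with Fucoidan-FV.

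Levels of Lmnb1 and Hmgb2 moved with the library property described for single-transcript genes, and those of Hmgb1 moved against it. Sequence found in 1 transcript makes up 84.2% of Lmnb1 and 79.2% of Hmgb2, against 57.3% of Hmgb1, 37.4% of Lmna, 15.1% of Hmgb3 and 5.26% of Hmga1. Pearson's r with the median of single-transcript genes was taken over the 13 libraries after the mean of each group was removed. It was 0.71 for Lmnb1, 0.82 for Hmgb2, 0.26 for Lbr, −0.11 for Lmna and −0.12 for Hmga1. For Hmga2, Lmnb2, Hmgb3 and Hmgb1 it was −0.41, −0.47, −0.53 and −0.77. These r are descriptions over libraries that share groups and scaling, with no test. In control mouse 5, library 5(2) held 42.2 CPM of Lmnb1 and library 5(1) 15.7 CPM. The falls of Lmnb1 and Hmgb2 in senescent MEFs remained with offsets for this property. Both still passed when the 4 libraries with fewest counts on single-transcript genes were left out, a choice made after the data were seen. Without those libraries 4 members passed (Lmnb1, Lbr, Hmgb2 and Hmgb3). In that fit the median of single-transcript genes stood at 0.73 and 1.05 in the control libraries kept. It stood at 0.51 and 0.29 in the senescent libraries kept, so the property was not even between these groups.

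**Figure D2:**
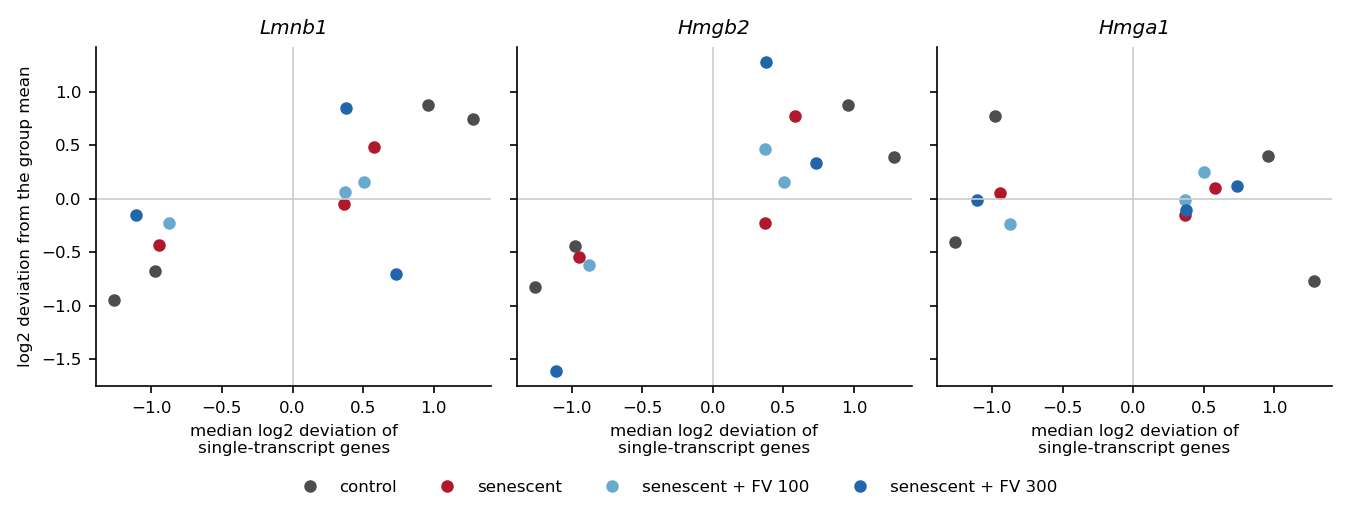
Log2 deviation of Lmnb1, Hmgb2 and Hmga1 from their group mean (vertical axis) against the median log2 deviation of 493 single-transcript genes from its group mean (horizontal axis), 1 point per library, 13 libraries, colours by group. Points of Lmnb1 and Hmgb2 rise from left to right (r = 0.71 and 0.82), and those of Hmga1 do not (r = −0.12).

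The next comparison asked what 100 μg/mL Fucoidan-FV did to senescent MEFs. Hmga1 fell strongly, Hmga2 fell, and Lmna fell to a smaller extent, while no member was called higher. Of the 9 members, 3 passed the test, all lower, beside 4.02% of all genes and 2.89% in that direction. Hmga1 and Hmga2 were DEGs (2.69% of all genes), and 4 members lay lower without overlap (15% of all genes). The median log2 fold change was −0.48 over the members and −0.02 over all genes.

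Hmga1 stood at 288, 332 and 344 CPM in untreated senescent mice 4, 5 and 6 and at 27.8, 33.5 and 23.9 CPM at 100 μg/mL. The lowest untreated sample was far over the highest treated one, with log2 differences of −3.37, −3.31 and −3.85 in mice 4, 5 and 6. The difference was 11.3-fold (log2 fold change −3.50, SE 0.23, adjusted p = 1.44e-05). By p-value Hmga1 ranked 1 of the 15034 genes tested, and by log2 fold change it ranked 45 from the lowest.

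Hmga2 stood at 223, 179 and 178 CPM in untreated senescent mice 4, 5 and 6 and at 61.9, 46.3 and 43.3 CPM at 100 μg/mL. The fall was 3.82-fold and alike in the mice, −1.85, −1.95 and −2.04 on the log2 scale (log2 fold change −1.94, SE 0.30, adjusted p = 0.00542). Hmga1 thereby lost ground to Hmga2: per length it was 81.7% ± 2.72 (SD, n = 3) of the summed HMGA TPM in senescent MEFs and 61.0% ± 4.34 at 100 μg/mL, while the sum went from 383 ± 44.5 to 64.4 ± 14.1 TPM. The ranges of the share were 78.5 to 83.4% and 56.4 to 65.1%.

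Lmna stood at 1155, 1064 and 1656 CPM in untreated senescent mice 4, 5 and 6 and at 714, 651 and 623 CPM at 100 μg/mL. All treated samples were under all untreated ones, and the fall was 1.95-fold (log2 fold change −0.96, SE 0.20, adjusted p = 0.0180). The call was lost when any 1 of 5 of the 6 samples was left out (adjusted p = 0.0529 to 0.0833), the exception being senescent mouse 5. It was also lost with only the 2 groups fitted (adjusted p = 0.121), without the 4 libraries with fewest counts on single-transcript genes (0.0515) and on the TPM scale (0.0856 with limma). Without those 4 libraries Hmga2 was not called either (log2 fold change −1.89, adjusted p = 0.0544), while Hmga1 was. Lmnb2 had 11.2, 11.2 and 14.3 CPM against 19.7, 18.3 and 25.3 CPM in untreated mice and did not pass (log2 fold change −0.79, SE 0.26, adjusted p = 0.104), but with offsets for single-transcript sequence, length and GC it did (log2 fold change −0.84, adjusted p = 0.0322).

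The other members gave no call at this dose. Lmnb1 was at 2.19, 2.35 and 1.80 CPM in FV100 mice 4, 5 and 6, among the untreated senescent samples, and its interval was wide (log2 fold change 0.22, −0.84 to 1.27). In the deposited TPM, Lmnb1 stood at 0.95, 1.83 and 1.46 in senescent mice 4, 5 and 6 and at 2.56, 4.29 and 2.52 at 100 μg/mL. These samples lay higher without overlap, but the log2 difference of 0.91 on that scale did not pass. Lbr had a log2 fold change of 0.09 (−0.61 to 0.79), Hmgb1 of 0.05 (−0.41 to 0.51), Hmgb2 of −0.24 (−1.61 to 1.12) and Hmgb3 of −0.48 (−1.27 to 0.32). Lmnb1 and Hmgb2 had 52 to 70 and 32 to 75 counts per FV100 sample and the widest intervals. In the deposited TPM, Hmgb1 stood at 291, 281 and 230 in senescent mice 4, 5 and 6 and at 331, 344 and 470 at 100 μg/mL. On that scale the median of all genes also shifted, by 0.34 on the log2 scale, and Hmgb1 by 0.50, which did not pass (adjusted p = 0.113 with limma). Hmgb2 stood at 2.40, 5.64 and 5.71 TPM in senescent mice 4, 5 and 6 and at 2.21, 1.59 and 0.80 TPM at 100 μg/mL. These samples did not overlap, but the log2 difference of −1.30 did not pass either (SE 0.81, adjusted p = 0.345).

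At 300 μg/mL, 2 of the 9 members passed against untreated senescent MEFs, Hmga1 and Hmga2, both lower, beside 1.9% of all genes and 1.12% in that direction. Both were DEGs (1.64% of all genes), and 3 members lay lower without overlap (10.2% of all genes). The comparison shares its untreated samples with the one at 100 μg/mL, so each is given by its own values. Hmga1 stood at 32.6, 35.9 and 30.7 CPM in mice 4, 5 and 6, the tightest group of samples of any member at this dose. Its fall was 9.72-fold (log2 fold change −3.28, SE 0.23, adjusted p = 2.88e-05), again rank 1 of the 15034 genes by p-value and rank 83 from the lowest log2 fold change.

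Hmga2 at 300 μg/mL was at 89.1, 51.7 and 34.9 CPM in mice 4, 5 and 6. All were under the untreated senescent samples, with a wider spread than at 100 μg/mL, and the fall was 3.30-fold (log2 fold change −1.72, SE 0.30, adjusted p = 0.0116). The call was lost without FV300 mouse 6 or mouse 5 (adjusted p = 0.0604 and 0.0630), when only the 2 groups were fitted (0.0523), with library 5(2) alone for control mouse 5 (0.0511) and without the 4 libraries (0.0761), while the log2 fold change lay between −2.17 and −1.45 in these fits.

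Lmna was at 956, 751 and 702 CPM in FV300 mice 4, 5 and 6, under every untreated senescent sample, but did not pass (log2 fold change −0.69, SE 0.20, adjusted p = 0.0991). It passed with DESeq2 (adjusted p = 0.0298) and with the offsets (0.0272). Hmgb2 spread most, from 0.427 CPM (11 counts) in mouse 4 to 3.15 CPM in mouse 6, and Hmgb3 ran from 11.5 CPM in mouse 4 to 3.32 CPM in mouse 6. The remaining intervals were −1.37 to 0.77 for Lmnb1, −0.99 to 0.11 for Lmnb2, −0.42 to 0.97 for Lbr and −0.32 to 0.61 for Hmgb1.

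The doses were compared directly. None of the 9 members passed between FV300 and FV100 in edgeR (adjusted p of 0.970 or more, and 0 members at an unadjusted p under 0.05), and 1 gene of all tested did, 0.00665%. DESeq2 also called 0 members. For Hmga1 the log2 difference was 0.22 with a 95% interval of −0.24 to 0.68, for Hmga2 0.21 (−0.42 to 0.84) and for Lmna 0.28 (−0.14 to 0.70). Differences between the doses within these bounds could not be told from none.

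**Figure D3:**
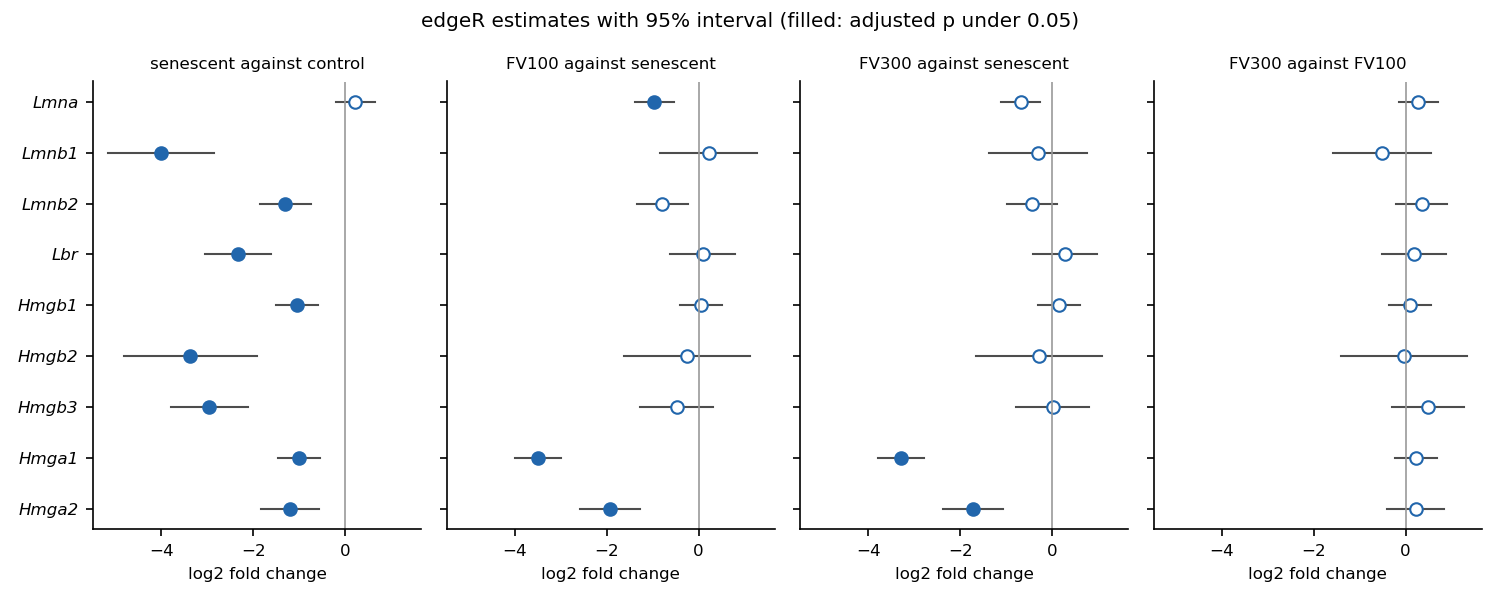
Log2 fold changes of the 9 members (horizontal axis) in 4 comparisons, with 95% intervals as lines. Filled points have an adjusted p under 0.05 in edgeR: 8 in senescent against control, 3 at 100 μg/mL, 2 at 300 μg/mL and 0 between the doses.

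Set against control MEFs, the treated senescent cells were lower for every member that senescence had lowered. At 100 μg/mL 9 members passed, all lower (26.6% of all genes passed, 14.4% lower), and at 300 μg/mL 8, all lower (24.4% of all genes, 12% lower), with Lmna not passing at the higher dose (log2 fold change −0.46, SE 0.20, adjusted p = 0.106). With the offsets for single-transcript sequence, length and GC it did pass (log2 fold change −0.84, adjusted p = 0.00164). The call of Lmna at 100 μg/mL was lost when control mouse 4, 5 or 6 or FV100 mouse 5 was left out (adjusted p = 0.0515 to 0.104), without the 4 libraries (0.0970) and on the TPM scale (log2 fold change −0.31, adjusted p = 0.159 with limma). Hmga1 was 22.6-fold under control MEFs at 100 μg/mL (log2 fold change −4.50, SE 0.24) and 19.4-fold under them at 300 μg/mL (−4.28, SE 0.24). Hmga2 was 8.79-fold and 7.58-fold lower. Both comparisons share the control samples.

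The rank of the members per length shifted with these differences. In control MEFs the order by mean TPM was Lmna (763 ± 94.6), Hmga1 (599 ± 181), Hmgb1 (539 ± 63.0), Hmga2 (153 ± 43.7), Hmgb3 (51.5 ± 5.03), Hmgb2 (46.5 ± 11.4), Lmnb1 (31.2 ± 15.4), Lbr (29.2 ± 8.78) and Lmnb2 (19.8 ± 2.78; SD, n = 3). The samples of Hmga1 overlapped with those of Lmna and of Hmgb1, while Lmna and Hmgb1 did not overlap. Hmga2 lay apart from its neighbours, and the members from Hmgb3 downward overlapped with theirs. At 100 μg/mL Hmga1 (39.2 ± 8.48 TPM) was near Hmga2 (25.2 ± 6.94 TPM) and far under Lmna (618 ± 96.6 TPM) and Hmgb1 (382 ± 76.8 TPM). At 300 μg/mL Hmga1 was at 41.0 ± 8.31 TPM and Hmga2 at 25.7 ± 10.4 TPM, with overlapping samples.

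**Figure D4:**
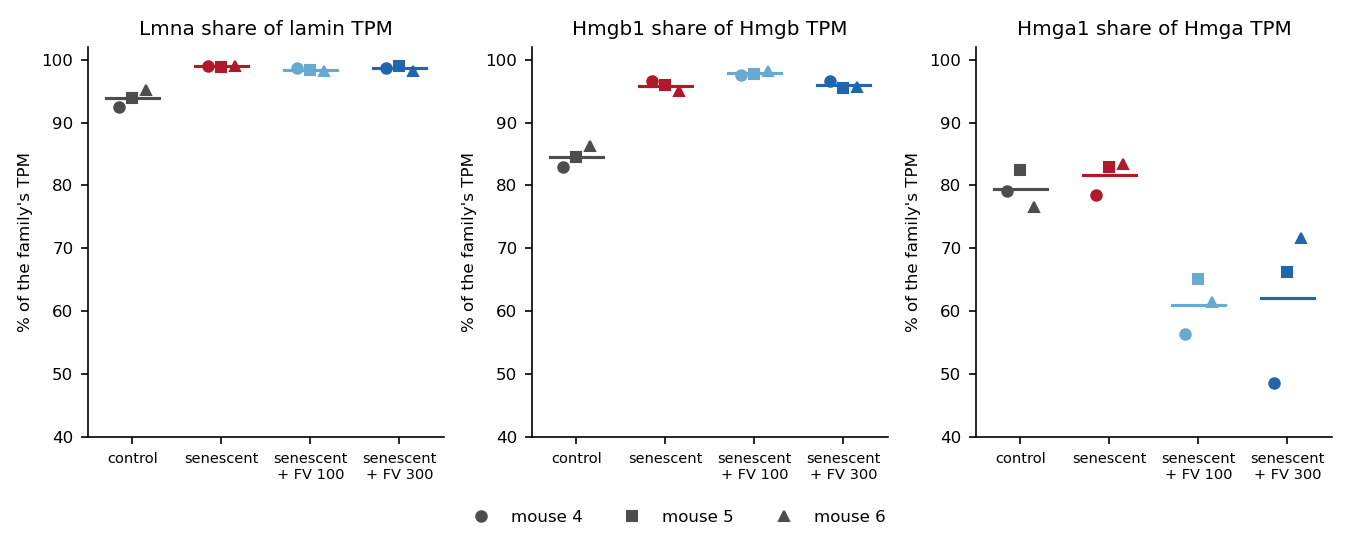
Share of Lmna in the summed lamin TPM, of Hmgb1 in the summed HMGB TPM and of Hmga1 in the summed HMGA TPM, in percent on an axis that starts at 40, for each mouse and group, with bars at the mean of 3 mice. Lmna and Hmgb1 gain share from control to senescent MEFs (93.9 to 98.9% and 84.6 to 95.8%), and Hmga1 loses share with Fucoidan-FV (81.7 to 61.0 and 62.1%).

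The members did not vary as 1 block. Over the 12 samples, Pearson's r of log2 CPM was 0.97 between Lmnb1 and Hmgb2, 0.95 between Lmnb1 and Lbr and 0.96 between Hmga1 and Hmga2, but 0.62 between Lbr and Hmga1, 0.56 between Hmgb1 and Hmga1 and 0.29 between Lmna and Hmgb1. Lmna was nearest to Hmga1 (0.83). The genes most like Hmga1 were Etv4 (0.99), Plaur (0.99) and Tnk2 (0.98), and those most like Hmga2 included Nmd3 (0.99) and Plaur (0.98). For Lmnb1 they were Kif11 (0.99), Pbk (0.99) and Pimreg (0.99), for Hmgb2 Chtf18 (0.99), Mki67 (0.98) and Pbk (0.98), and for Hmgb3 Stmn1 (0.99), Depdc1a (0.99) and Cdca7 (0.98). Lmnb2 was most like Vars1, Noc2l and Elavl1 (0.99 each), Lbr like Kif22, Rbmx and Tfap4 (0.98 each), Hmgb1 like Fam111a, Smc4 and Hira (0.97 each) and Lmna like Slc35e4 (0.98), Slc16a11 (0.97) and Capg (0.97). These samples share groups, so the values describe the pattern and carry no p.

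The RSEM length, the mean length of a gene's transcripts weighted by abundance, gave a readout of transcript mix apart from the count. In senescent against control MEFs and at 300 μg/mL the lengths of 0 of 9 members lay apart without overlap, beside 7.82% and 7.65% of all tested genes whose length varied. At 100 μg/mL those of 2 members did not overlap with the untreated senescent samples, beside 10.6% of such genes. For Hmgb2 they were 2211 to 2486 bases against 583 to 1281 bases, and for Lmna 2098 to 2180 against 2027 to 2092 bases. The exact two-sided permutation p was 0.1 for both, the smallest that 3 against 3 samples can give, and 0.45 after adjustment over the 9 members. The Hmgb2 lengths rest on 32 to 75 counts per FV100 sample and 31 to 98 per senescent sample.

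Hmga1 has a near-identical copy, Hmga1b, and 92.5% of the 32-base words of Hmga1b also occur in Hmga1, so RSEM may divide reads between them. Counts of Hmga1b summed to 6767 over all libraries. With the copy added, the log2 fold change of Hmga1 was −0.98 in senescent against control MEFs (adjusted p = 0.0107), −3.49 with FV100 (1.93e-05) and −3.33 with FV300 (3.21e-05). The named pseudogene of Hmgb1 with most counts held 59.0 over all libraries, and that of Hmga2 held 243. On the opposite strand, Smim29 shares 14.5% of the exonic bases of Hmga1, Gm56857 17.0% of those of Hmgb2, Marchf3 12.9% of those of Lmnb1 and Dnah14 11.9% of those of Lbr. The strand setting of the counting was not given in the sources used here, so reads of such pairs cannot be told apart.

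Few other genes of the nuclear envelope and of lamin processing passed. Of 26 genes, 3 did, near the share of all genes (11.7%), in senescent against control MEFs, all lower: Tmpo, which encodes the lamina-associated polypeptide 2 proteins (log2 fold change −2.98, SE 0.32, adjusted p = 8.66e-05), the nesprin gene Syne2 (−1.91, adjusted p = 0.00563) and Tmem201 (−1.06, adjusted p = 0.00502). The median log2 fold change was −0.17, beside 0.07 over all genes. None of the 26 passed at either dose of Fucoidan-FV, beside 4.02% of all genes at 100 μg/mL and 1.9% at 300 μg/mL. For Tmpo the adjusted p was 0.995 with FV100 and 0.859 with FV300.

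Of 14 further HMG-box and HMGN genes, 13 were tested and 2 passed in senescent MEFs, both lower, beside 11.7% of all genes. They were Hmgn2, a nucleosome-binding HMG gene (log2 fold change −2.27, SE 0.28, adjusted p = 0.000228), and Ssrp1, a subunit of the histone chaperone FACT (−0.92, SE 0.19, adjusted p = 0.00699). None passed with Fucoidan-FV at either dose, which for 13 genes is near the shares of all genes (4.02% at 100 μg/mL and 1.9% at 300 μg/mL). Decreases with Fucoidan-FV among HMG genes were called for Hmga1 and Hmga2. They were called for none of the 13 or of Hmgb1, Hmgb2 and Hmgb3, but the difference between genes was not tested.

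Of 24 heterochromatin genes, 9 passed in senescent MEFs, all lower (5.63% of all genes passed lower), with a median log2 fold change of −0.68. The largest falls were those of the histone chaperone genes Asf1b (−4.05, adjusted p = 0.00572) and Chaf1b (−3.27, adjusted p = 0.00274), the histone methyltransferase gene Suv39h2 (−2.16, adjusted p = 0.0226) and the histone variant gene H2az1 (−2.14, adjusted p = 0.000299). Only Macroh2a1, the gene of a histone variant found in senescence-associated foci, passed at 100 μg/mL (log2 fold change −0.72, SE 0.18, adjusted p = 0.0414). That is near the share of all genes at this dose (4.02%). None of the 24 passed at 300 μg/mL, beside 1.9% of all genes. Of 7 linker histone genes, 5 were tested and 2 passed in senescent MEFs, beside 11.7% of all genes in either direction. They were H1f4 and H1f3, both higher (3.57 and 2.56, adjusted p = 0.0239 and 0.0296) from low levels of 0.108 and 0.477 CPM. Some 96.6% of the H1f3 sequence occurs in a single transcript.

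LIN28 and let-7 are known regulators of Hmga2, the let-7 microRNAs repressing it. Of 12 genes around this axis, 10 were tested, and 4 passed in senescent MEFs, all lower (5.63% of all genes): the RNA-binding protein gene Igf2bp3 (−0.96, adjusted p = 0.0273) and the microRNA-processing genes Dicer1 (−0.84, adjusted p = 0.0345), Dgcr8 (−0.76, adjusted p = 0.0323) and Drosha (−0.62, adjusted p = 0.0347). With Fucoidan-FV a single gene passed at each dose, beside 4.02% of all genes at 100 μg/mL and 1.9% at 300 μg/mL. Any link to the falls of Hmga2 was not tested, and let-7 levels were not examined. The gene was H19, a let-7-binding long noncoding RNA. It stood at 139 ± 35.2 CPM in untreated senescent MEFs, 1461 ± 1146 CPM at 100 μg/mL and 1506 ± 866 CPM at 300 μg/mL (SD, n = 3), and rose at both doses (log2 fold changes 3.39 and 3.44, SE 0.56 each, adjusted p = 0.00719 and 0.00965).

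Of 12 genes whose products bind HMGB1 or act with it outside the cell, 10 were tested. None passed in senescent MEFs, 3 passed at 100 μg/mL (4.02% of all genes) and 2 at 300 μg/mL (1.9% of all genes). At 100 μg/mL the interleukin-1 receptor gene Il1r1 rose (log2 fold change 2.09, SE 0.45, adjusted p = 0.0229), Havcr2, the gene of the receptor TIM-3, fell (−2.52, SE 0.45, adjusted p = 0.00956), and so did Siglecg, a sialic acid receptor gene (−1.76, SE 0.35, adjusted p = 0.0159), named at this dose after its value was seen. At 300 μg/mL Il1r1 rose (2.03, SE 0.45, adjusted p = 0.0353) and Siglecg fell (−1.55, SE 0.35, adjusted p = 0.0371).

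Cell cycle and senescence genes were read beside the members. All 12 proliferation genes were lower in senescent MEFs and 11 passed, beside 5.63% of all genes in that direction. Among them were Mki67 (−4.57, adjusted p = 0.000865), Top2a (−4.56, adjusted p = 0.000400), Ccnb1 (−4.30, adjusted p = 0.000870) and Ccna2 (−4.26, adjusted p = 0.000204). None of the 12 passed in FV100 or FV300 against untreated senescent MEFs, near the low shares of all genes (4.02% and 1.9%). In FV100 MEFs 9 of them were lower and 3 higher. Their median log2 fold change was −0.54, beside −0.02 over all genes. In FV300 MEFs 10 were lower and 2 higher, with a median of −0.64 beside 0.00026. Of 8 senescence genes, 3 passed higher and 1 lower in senescent MEFs, beside 11.7% of all genes in either direction. The cell cycle inhibitor genes Cdkn2a (2.46, adjusted p = 7.24e-05) and Cdkn1a (1.82, adjusted p = 6.79e-05) and the β-galactosidase gene Glb1 (0.92, adjusted p = 0.0135) rose, while Trp53 fell (−0.77, adjusted p = 0.0111). The part of the lower proliferation genes in the falls of the members was not tested.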

How the data were processed

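RNA of 13 libraries was sequenced by the authors after TruSeq stranded total RNA preparation. Per the labels, the tools were FastQC 0.12.1, Trimmomatic, STAR 2.7.11b and RSEM 1.3.1, with GRCm39 as genome. The strand setting is not given in the sources used here. The authors deposited expected counts per gene without normalization, beside a length column and TPM and FPKM values, which RSEM scales for length and library size. The deposited FPKM were not used, and the deposited TPM served for levels between genes and for 1 alternative.

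Rounded expected counts (22782536 to 31278750 per library) were tested with edgeR 4.0.16 in R 4.3.3, after libraries 5(1) and 5(2) had been added together. The filter was filterByExpr at a count of 10 and a total of 15. With TMM scaling, 1 quasi-likelihood fit held all 4 groups, p-values of 15034 genes were adjusted by the Benjamini-Hochberg method, and adjusted p for genes come from this fit unless another tool is named. On simulated counts (FV100 against senescent MEFs, 14327 genes) 11.5%, 61% and 85.7% of genes changed 2-, 4- and 8-fold were recovered, with 6 false calls.

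Groups and mouse numbers came from the labels. The titles name the same mouse numbers in every group, but the main fit had no term for the mouse and did not pair the samples. Xist and Y-linked counts set mouse 4 apart in each group but cannot tell mice 5 and 6 apart. Deviations from the group mean correlated in 18 pairs with a median of −0.052 (−0.38 to 0.66), and in 8 over 0.1. The block for the mouse was an alternative. P-values measure the spread between these samples. The members and gene lists were chosen with earlier results of these data known. The genes named were the 9 members, per list up to 4 that passed in senescent against control MEFs with the largest absolute log2 fold change and up to 2 that passed at each dose, and the 3 most correlated with each member. A gene that this rule names is not reported here.

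Other alternatives were RLE scaling, DESeq2 1.42.0, looser and stricter filters, fits of the compared groups alone, other uses of libraries 5(1) and 5(2), each sample left out, offsets from mgcv 1.9.3 for single-transcript sequence (32-base words), length and GC, members summed with their copies, and limma 3.58.1 on log2(TPM + 0.5). The offset for single-transcript sequence alone and the fit without control mouse 6, library 5(1), senescent mouse 5 and FV300 mouse 4 were chosen after seeing the data. Gene positions and promoters came from the GENCODE annotation of GRCm39.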

Additional observations from a re-analysis of the deposited data

How the results depend on the processing

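Each result was recomputed under the alternatives. The count of members passing in senescent against control MEFs was 8 and ranged from 4 (without the 4 libraries with fewest counts on single-transcript genes) to 8. At 100 μg/mL it was 3 and ranged from 1 (without those 4 libraries) to 4 (with the offsets), and at 300 μg/mL it was 2 and ranged from 1 to 3. At 300 μg/mL it was 1 with only the 2 groups compared, with library 5(2) alone and without those 4 libraries, and 1 to 2 with each sample left out. Between the doses it was 0 in every alternative. With the mouse as a replicate block, which pairs the samples, 8, 3, 2 and 0 members passed in these 4 comparisons and no call of a member changed, while the log2 fold change of Hmgb3 at 300 μg/mL went from 0.0095 to −0.018. Hmga1 passed at both doses in all alternatives.

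Reversals touched members without a call. Lmna in senescent against control MEFs went to −0.11 with the offsets and −0.10 with the offsets and the block. Lmnb1 at 100 μg/mL went to −0.18, −0.17 and −0.28 with the offsets, with the offsets and the block, and with the offset for single-transcript sequence alone, and Hmgb1 went to −0.050 with the last. Hmgb3 at 300 μg/mL went to −0.26, −0.27 and −0.15 in the same 3 fits and to −0.54 without the 4 libraries, where Lbr went to −0.10 and −0.13 at 100 and 300 μg/mL. Lmnb1 at 300 μg/mL was 0.21 on the TPM scale. Between the doses Hmga2 was −0.28 without the 4 libraries and −0.019 on the TPM scale. With each sample left out, the ranges were −0.50 to 0.42 (Hmgb2), −0.028 to 0.53 (Lbr) and −0.22 to 0.22 (Hmgb1) at 100 μg/mL, −0.84 to 0.0047 (Lmnb1), −1.03 to 0.26 (Hmgb2) and −0.51 to 0.35 (Hmgb3) at 300 μg/mL, and −0.22 to 0.48 between the doses (Hmga2). The causes were not tested.

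Counts and directions of DEGs over all genes depended on the fit. At 100 μg/mL 40.7% of 405 DEGs were higher with TMM factors, 54.2% of 321 with RLE factors, 62.5% of 774 with DESeq2, 31.6% of 675 with the offsets and 79.8% of 332 on the TPM scale, and the median log2 fold change of all genes was −0.02, 0.07, 0.07, −0.17 and 0.34. Hmga1 and Hmga2 were lower in each of these fits. RLE factors alone gave 247 DEGs at 300 μg/mL and 1281 in senescent against control MEFs. At 300 μg/mL 246 DEGs (45.9% higher) became 291 (78.0%) on the TPM scale, 605 with DESeq2, 413 with the offsets and 118 without the 4 libraries. Against control MEFs, the share of higher DEGs went from 52.3% to 39.2% with the offsets and 76.7% on the TPM scale at 100 μg/mL, and from 54.9% to 74.5% on the TPM scale at 300 μg/mL. Fitting only the 2 groups compared gave 699 DEGs (35.6% higher) in place of 1266 (53.1%) in senescent against control MEFs, 168 at 100 μg/mL and 101 at 300 μg/mL, and no filter beyond 1 count gave 800 and 580 at the 2 doses. Leaving out a sample lowered the count to 136 at 100 μg/mL (FV100 mouse 4) and 46 at 300 μg/mL (FV300 mouse 6).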
